A study of Mus with 8 samples.

Results

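The genes of hepatic steroid hormone metabolism were examined in mouse liver arrays, as 9 enzyme genes chosen by symbol: Cyp17a1, Hsd17b2, Hsd17b6, Hsd11b1, Hsd3b2, Hsd3b3, Hsd3b5, Srd5a1 and Akr1c6. Of these, 8 were found among the 23185 named genes of the table, and Srd5a1 was not analysed here. The 2 groups were livers labelled LKB1 KO and livers labelled Control, with 4 arrays each, all taken 48 h after partial hepatectomy, the removal of part of the liver that starts regrowth of the remainder. LKB1 is a protein kinase encoded by Stk11. Strain, sex, age, the method and cell type of the LKB1 deletion, and whether each array is a separate animal are not stated in the labels. The genes were chosen with the contrast between these groups in view, so their differences are a description and carry no p.

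The liver takes up circulating steroid hormones and changes their activity. Hydroxysteroid dehydrogenases switch hydroxyl and keto groups, which turns a hormone on or off, reductases saturate the steroid ring, and cytochrome P450 enzymes add hydroxyl groups that prepare it for conjugation and excretion. Several of these enzymes differ strongly between male and female mouse liver. RNA levels are given as the authors' log2 values, so a difference of 1 is a 2-fold change. They measure neither enzyme activity nor steroid levels.

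Stk11 averaged 4.25 ± 0.41 in LKB1 KO livers and 6.64 ± 0.13 in Control livers (SD, n = 4 each), and no array went against its label (difference -2.39, limma adjusted p = 0.000453). LKB1 KO 2 stood farthest from its own group (mean correlation 0.974 across genes), and Control 4 was the Control array with the lowest such value, 0.976. Median array values lay between 3.75 and 3.96. A value of 3.73, below which the mean levels of 95% of 1354 olfactory and vomeronasal receptor genes lay, served as a gauge of background and was chosen with earlier results known. Hepatocyte markers were present on every array, with Alb between 12.16 and 12.31 in LKB1 KO livers and between 12.29 and 12.47 in Control livers. Fewer cells of a type and less RNA per cell cannot be told apart in such bulk tissue.

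Cyp17a1 was the member with a higher level in the LKB1 KO livers, and every other measured member had a lower mean there. Among the members above background on all arrays, the lower levels differed most in Hsd17b2, Hsd17b6 and Hsd11b1, less in Hsd3b3 and Hsd3b2, and by close to 0 in Akr1c6. Hsd3b5 was below the background gauge on all LKB1 KO arrays, so the size of its difference is uncertain and is not ranked. In the limma fit over all named genes (adjusted p under 0.05), 1 of the 8 passed as higher and 3 passed as lower, beside 1.98% of all genes in either direction, 0.487% higher and 1.49% lower. The median difference of the 8 was -0.99 log2 units, beside 0.016 over all genes. The groups did not overlap in 5 of the 8, beside 8.84% of all genes. Because the members were chosen from this contrast, nothing is read from these counts.

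**Figure D1:**
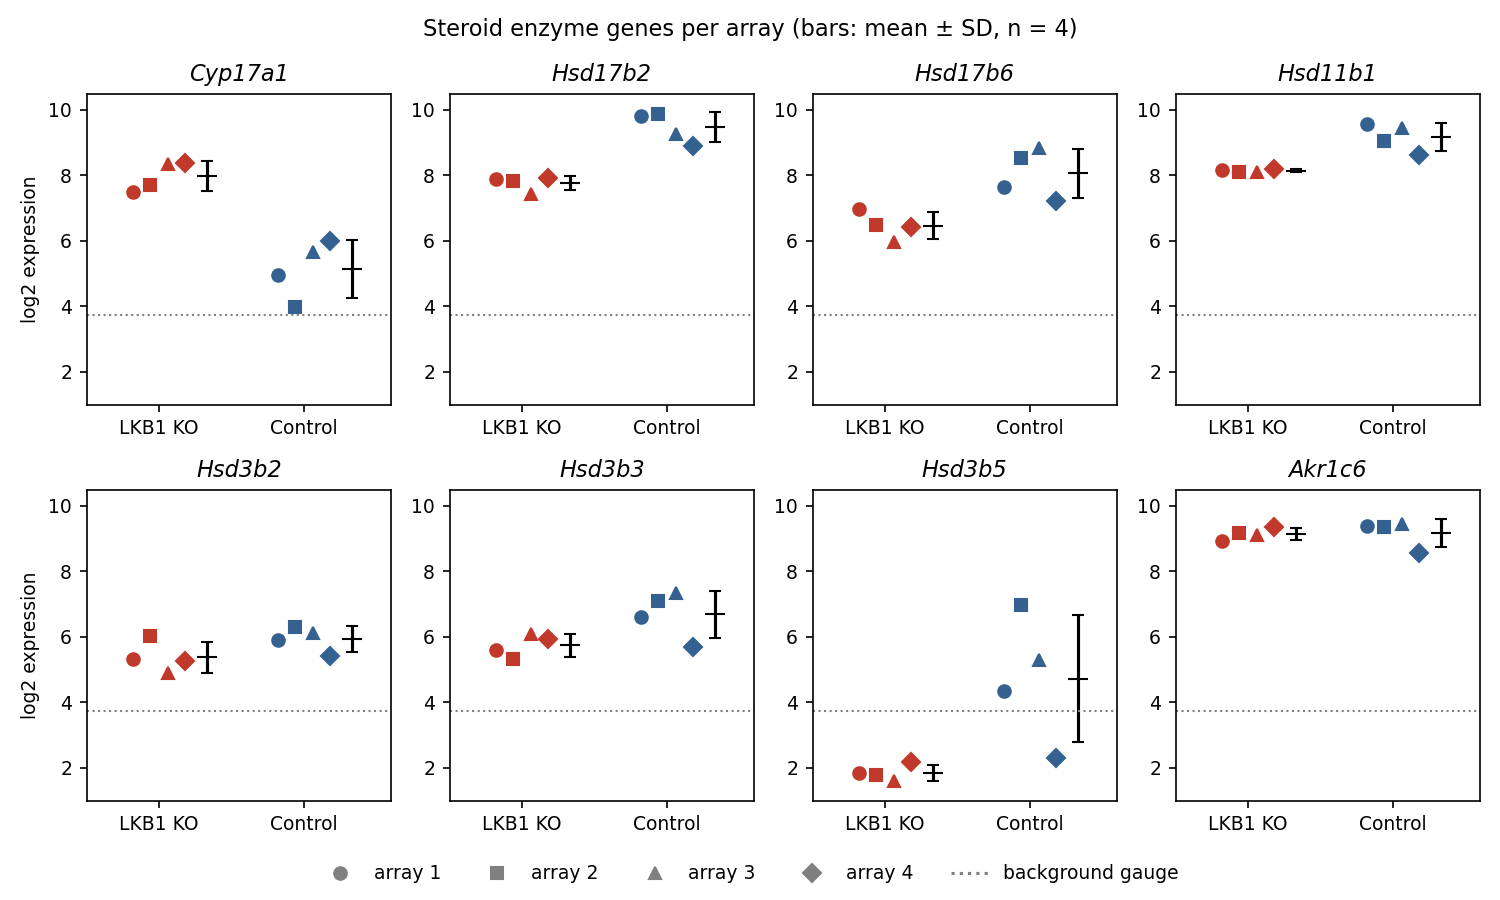
Each panel shows the log2 expression of 1 gene on the 4 LKB1 KO arrays (red, left) and the 4 Control arrays (blue, right), with the mean and SD beside them and the background gauge of 3.73 as a dotted line. Cyp17a1 stood higher on all LKB1 KO arrays, Hsd17b2, Hsd17b6 and Hsd11b1 lower on all of them, and Control 4 (blue diamond) lay near the LKB1 KO arrays in Hsd3b3 and Hsd3b5.

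Cyp17a1 (Entrez Gene 13074) encodes the P450 that hydroxylates pregnenolone and progesterone and cleaves the products to androgen precursors. It is best known from the gonads. Its log2 values were 7.49, 7.70, 8.33 and 8.38 in LKB1 KO 1 to 4, against 4.95, 3.98, 5.67 and 5.99 in Control 1 to 4. The groups did not overlap, as was the case with LKB1 KO above Control for 3.34% of all genes, and the Control arrays spread over 2.01 log2 units against 0.90 in the LKB1 KO arrays. Means were 7.98 ± 0.45 in LKB1 KO livers and 5.15 ± 0.89 in Control livers (SD, n = 4 each), a difference of 2.83 (SE 0.39, 95% confidence interval 1.96 to 3.69) or 7.09-fold.

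Markers of steroid-making cells of the adrenal cortex and gonad lay below or near the background gauge. Of the 12 listed, 8 were measured, and 6 of these (Cyp11a1, Cyp11b1, Cyp11b2, Nr5a1, Mc2r and Hsd17b3) lay below the background gauge on all 8 arrays. Star, the cholesterol carrier of steroid synthesis, was between 3.68 and 4.34 in LKB1 KO livers and between 3.34 and 4.2 in Control livers. It lay below the gauge on 1 array of each group, and Cyp21a1 on 2 arrays of each group. The log2 of the summed level of the 8 markers ranged from 5.97 to 6.36 in LKB1 KO livers and from 5.91 to 6.24 in Control livers, and 0 of them passed the test. The smallest unadjusted p among them, that of Cyp11b2, was 0.067. At levels this near background, neither the sum nor the count can show whether these markers differed. Cytochrome b5 (Cyb5a), which in other tissues supports the lyase step of the enzyme, had a difference of 0.24 (95% confidence interval -0.088 to 0.57, limma adjusted p = 0.550).

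Among named genes, those whose values over the 8 arrays lay nearest to those of Cyp17a1, after each gene was set to its own mean, were Fst, 3930402G23Rik, Htra1 and Prom1. Their mean distance per array was 0.33, 0.37, 0.43 and 0.43 log2 units. Fst, the follistatin gene, had 8.41, 8.34, 9.27 and 8.43 in LKB1 KO 1 to 4, against 5.77, 5.82, 6.44 and 6.37 in Control 1 to 4. All LKB1 KO values of Fst lay above all Control values, which follows from its choice by nearness to Cyp17a1.

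Hsd17b2 (Entrez Gene 15486) encodes an oxidative dehydrogenase that inactivates estradiol and testosterone to their keto forms. Its log2 values were 7.88, 7.83, 7.44 and 7.91 in LKB1 KO 1 to 4, against 9.81, 9.87, 9.28 and 8.91 in Control 1 to 4. The groups did not overlap, which with LKB1 KO below Control held for 5.5% of all genes. The means, 7.76 ± 0.22 in LKB1 KO livers and 9.47 ± 0.46 in Control livers (SD, n = 4 each), differed by -1.70 (SE 0.22, 95% confidence interval -2.18 to -1.22), a 3.26-fold lower level.

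Hsd17b6 (Entrez Gene 27400) encodes an oxidoreductase of the retinol dehydrogenase type that acts on androgen metabolites such as androstanediol. Its log2 values were 6.97, 6.49, 5.96 and 6.44 in LKB1 KO 1 to 4, against 7.65, 8.52, 8.85 and 7.22 in Control 1 to 4. The lowest Control array, Control 4, lay only just above the highest LKB1 KO array. The difference was -1.59 (SE 0.34, 95% confidence interval -2.35 to -0.84), or 3.02-fold lower. Hsd17b6 no longer passed the threshold after quantile normalization, or when any 1 array other than Control 4 was left out.

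Hsd11b1 (Entrez Gene 15483) encodes the reductase that regenerates active glucocorticoid from its inactive keto form inside hepatocytes. Its log2 values were 8.16, 8.11, 8.11 and 8.20 in LKB1 KO 1 to 4, a range of 0.087, against 9.57, 9.06, 9.44 and 8.63 in Control 1 to 4, a range of 0.94. LKB1 KO arrays were nearly equal and lay below every Control array. The difference was -1.03 (SE 0.19, 95% confidence interval -1.45 to -0.61), or 2.04-fold lower. Here too the threshold was missed when any 1 array other than Control 4 was left out.

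H6pd, the enzyme of the endoplasmic reticulum that supplies Hsd11b1 with its reduced cofactor, was not among the chosen genes and also fell. Its log2 values were 8.03, 7.53, 7.83 and 7.85 in LKB1 KO 1 to 4, against 8.41, 8.72, 8.56 and 8.98 in Control 1 to 4. In contrast to Hsd11b1, Control 4 had the highest H6pd value. The difference was -0.86 (SE 0.16, limma adjusted p = 0.0227), and without LKB1 KO 3, LKB1 KO 4 or Control 2 the adjusted p was 0.0657, 0.0644 and 0.0755. Over the single arrays left out it ranged from 0.0321 to 0.0755. Hsd11b2, the dehydrogenase of the opposite direction known from the kidney, lay below the background gauge on 3 of 4 LKB1 KO arrays and on all 4 Control arrays, so its levels were not compared. The glucocorticoid receptor gene Nr3c1 had values of 7.44, 7.44, 7.38 and 7.42 in LKB1 KO 1 to 4, against 8.18, 7.94, 7.79 and 7.77 in Control 1 to 4. Its difference of -0.50 (SE 0.13) did not pass the test (limma adjusted p = 0.0830).

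The Hsd3b family oxidises or reduces the hydroxyl group of the steroid A ring. Hsd3b2 and Hsd3b3 belong to the dehydrogenase and isomerase forms, whereas mouse Hsd3b5 is a ketosteroid reductase known for its expression in male liver. Their sequences are closely related, so probes may pick up transcripts of more than 1 member and the split between them is uncertain. Hsd3b5 (Entrez Gene 15496) had 1.86, 1.78, 1.6 and 2.19 in LKB1 KO 1 to 4, against 4.35, 6.96, 5.28 and 2.30 in Control 1 to 4. All 4 LKB1 KO arrays and Control 4 lay below the background gauge, while the other Control arrays lay above it. Control arrays alone spread over 4.66 log2 units. The difference of -2.87 had a wide 95% confidence interval, -4.52 to -1.23, and Hsd3b5 did not pass the threshold with all arrays. Without Control 4 the difference was -3.68 and passed, and without Control 2 it was -2.12 and did not.

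Hsd3b3 (Entrez Gene 15494) had 5.61, 5.32, 6.08 and 5.94 in LKB1 KO 1 to 4, against 6.61, 7.10, 7.33 and 5.70 in Control 1 to 4. The groups overlapped through Control 4 alone, and the difference was -0.95 (SE 0.32, 95% confidence interval -1.65 to -0.25). Hsd3b3 passed without Control 4, at -1.28, and not with all arrays. Hsd3b2 (Entrez Gene 15493) had 5.32, 6.02, 4.89 and 5.27 in LKB1 KO 1 to 4, against 5.89, 6.30, 6.13 and 5.41 in Control 1 to 4. Here the groups overlapped through LKB1 KO 2 as well as Control 4. The difference of -0.56 (SE 0.25, 95% confidence interval -1.12 to -0.0041) did not pass the threshold. It passed, at -0.95, only when both of these arrays were left out. Their removal enlarges the difference by arithmetic, so nothing is read from that call.

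By their order in the RefSeq annotation of assembly GRCm38.p6, Hsd3b5, Hsd3b2 and Hsd3b3 stand next to each other among the family genes, with Hsd3b4 before them and Hsd3b6 and Hsd3b1 after them. Hsd3b4 was not analysed here. Hsd3b6 and Hsd3b1 lay below the background gauge on all 8 arrays, with differences of 0.0073 and 0.046 (limma adjusted p = 0.993 and 0.951). No comparison of direction along this cluster can therefore include them. A more distant relative, Hsd3b7, which acts on sterols in bile acid synthesis, fell by 1.10 log2 units (SE 0.19, limma adjusted p = 0.0177). It had 7.72, 7.54, 7.63 and 7.59 in LKB1 KO 1 to 4, against 9.13, 9.05, 8.42 and 8.30 in Control 1 to 4. Without LKB1 KO 3, LKB1 KO 4 or Control 2 its adjusted p was 0.0549, 0.0566 and 0.0592, within a range of 0.00919 to 0.0592 over all single arrays left out.

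**Figure D2:**
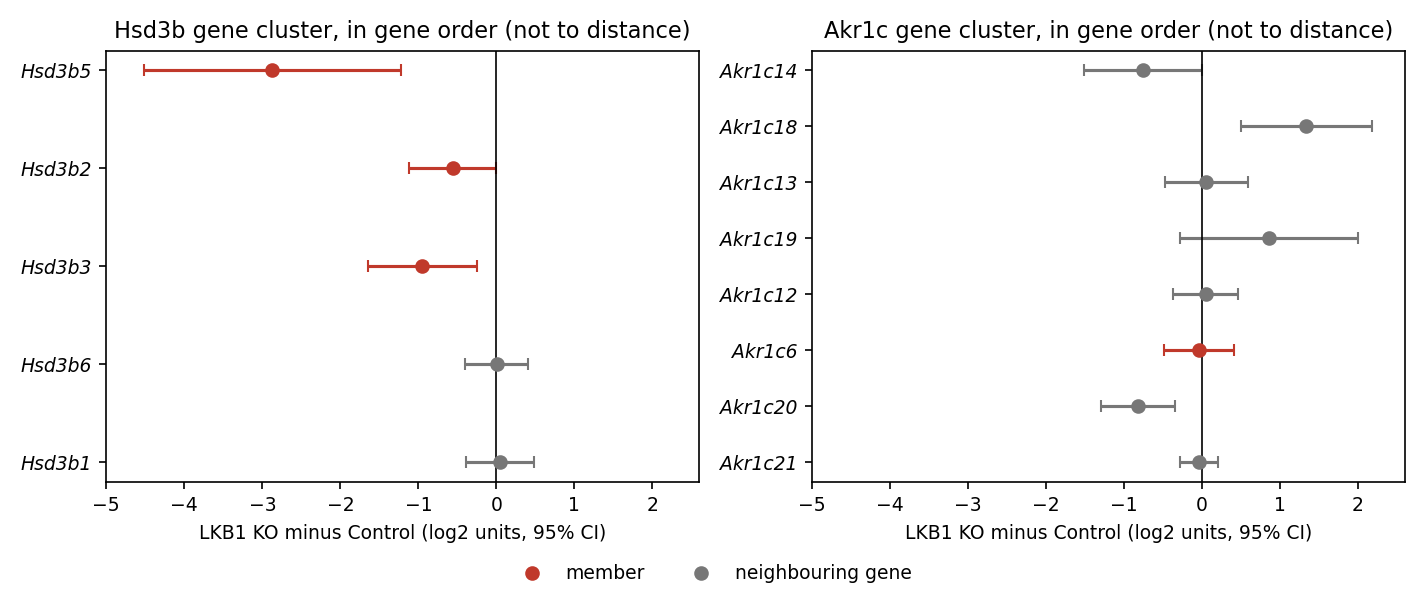
Differences between LKB1 KO and Control (log2 units, points) with 95% confidence intervals (bars) for measured genes of the Hsd3b and Akr1c clusters, from top to bottom in gene order and at equal spacing. Members are red and neighbouring genes grey. The interval of Akr1c6 spans 0, while those of Hsd3b5, Hsd3b3 and Hsd3b2 lie below it, that of Hsd3b2 ending at -0.0041. No member shown passed the threshold with all arrays. The members were chosen from this contrast, so their intervals are a description and not a test.

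Akr1c6 (Entrez Gene 83702) encodes the mouse aldo-keto reductase that makes testosterone from androstenedione. Its log2 values were 8.93, 9.18, 9.11 and 9.35 in LKB1 KO 1 to 4, against 9.39, 9.36, 9.44 and 8.55 in Control 1 to 4. Control 4 was far below the other Control arrays, and the groups overlapped. The difference was -0.042 (SE 0.20, 95% confidence interval -0.49 to 0.41), which became -0.25 without Control 4 and 0.044 without Control 3.

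Of the 7 other measured genes of the Akr1c cluster, 0 passed the test, and the smallest unadjusted p, that of Akr1c20, was 0.00313. Akr1c20 stood at 7.35, 7.80, 7.36 and 7.56 in LKB1 KO 1 to 4, against 8.35, 8.85, 8.41 and 7.74 in Control 1 to 4. Its difference of -0.82 (SE 0.22) had a limma adjusted p of 0.0929, and of 0.0190 without Control 4, in a range of 0.0190 to 0.224 over the single arrays left out. Akr1c14 differed by -0.76 (limma adjusted p = 0.379). Akr1c18, an enzyme that inactivates progesterone, was below the background gauge on 1 LKB1 KO array and on all 4 Control arrays, so the size of its difference of 1.34 is uncertain (limma adjusted p = 0.119). Among the reductases outside the cluster, Srd5a3, a relative of Srd5a1 that also serves protein glycosylation, fell by 0.59 log2 units (SE 0.12, limma adjusted p = 0.0367). It lost its call with any 1 array left out (adjusted p 0.0644 to 0.121) and after centring of arrays on their medians (0.0561). The bile acid and steroid reductase gene Akr1d1 had a difference of 0.74 (limma adjusted p = 0.126).

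Control 4 was the lowest Control array in 7 of the 8 members, and in Cyp17a1 it was the highest. Over the 11947 named genes whose mean lay above the background gauge, Control 4 was the lowest Control array in 28.1%, and Control 1 in 32.3%. Over the 345 genes that passed as lower in LKB1 KO, Control 4 was the lowest in 37.4% and Control 3 in 35.1%. Among the LKB1 KO arrays, LKB1 KO 2 was the lowest in 51.7% of the 11947 genes and in 1 of the 8 members. In each member with a lower mean in LKB1 KO, and in Cyp17a1, Control 4 thus lay on the side of the LKB1 KO arrays within its group. Leaving it out therefore enlarges all 8 differences by arithmetic. In that fit 6 of the 8 passed the threshold, as did 491 of all 23185 genes, and nothing is read from this count. The levels of the neutrophil genes S100a8 and S100a9 were also highest in Control 4 among all arrays, at 8.14 and 9.47, against at most 6.41 and 7.58 in LKB1 KO livers and 7.12 and 8.26 in the other Control livers. Ly6g, the other neutrophil marker listed, lay below the background gauge on all arrays. Control 4 was also highest for some markers of other cell types, such as Des (stellate, 6.60) and Lyve1 (endothelial, 7.12). It was not highest for others of these types, such as Pdgfrb and Pecam1. The part of this in the result was not tested.

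**Figure D3:**
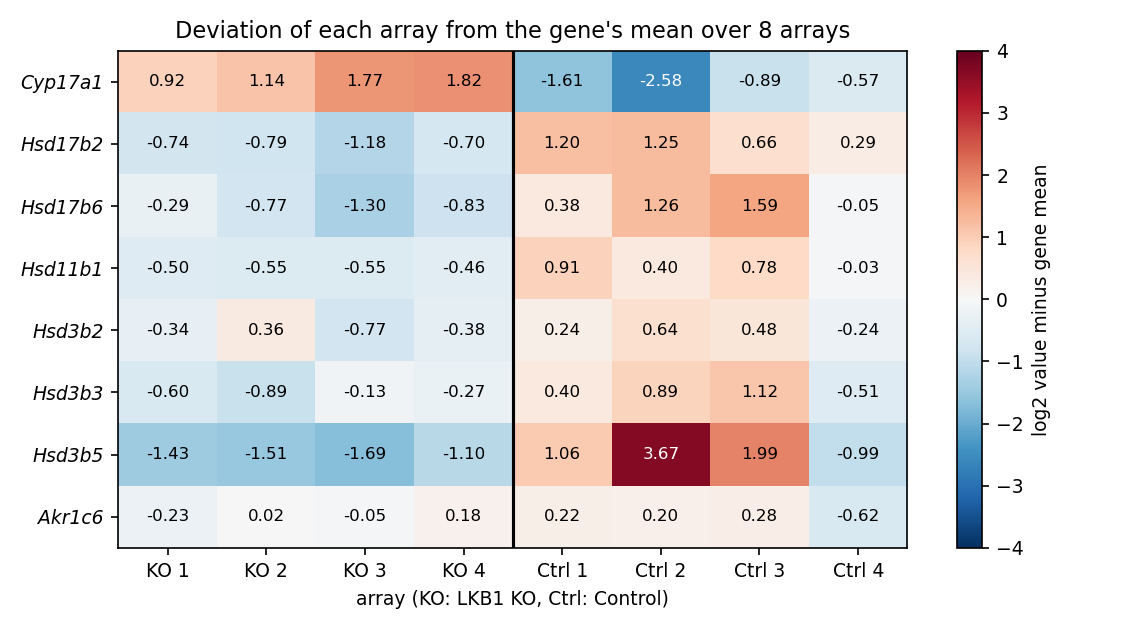
Each cell gives the log2 value of a gene (rows) on an array (columns) minus the gene's mean over the 8 arrays, in red where above and blue where below, with LKB1 KO arrays left of the line and Control arrays right of it. Control 4 is close to 0 or of the LKB1 KO sign in Hsd17b6, Hsd11b1, Hsd3b2, Hsd3b3 and Hsd3b5, and Hsd3b5 in Control 2 (3.67) is the largest deviation.

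**Figure D4:**
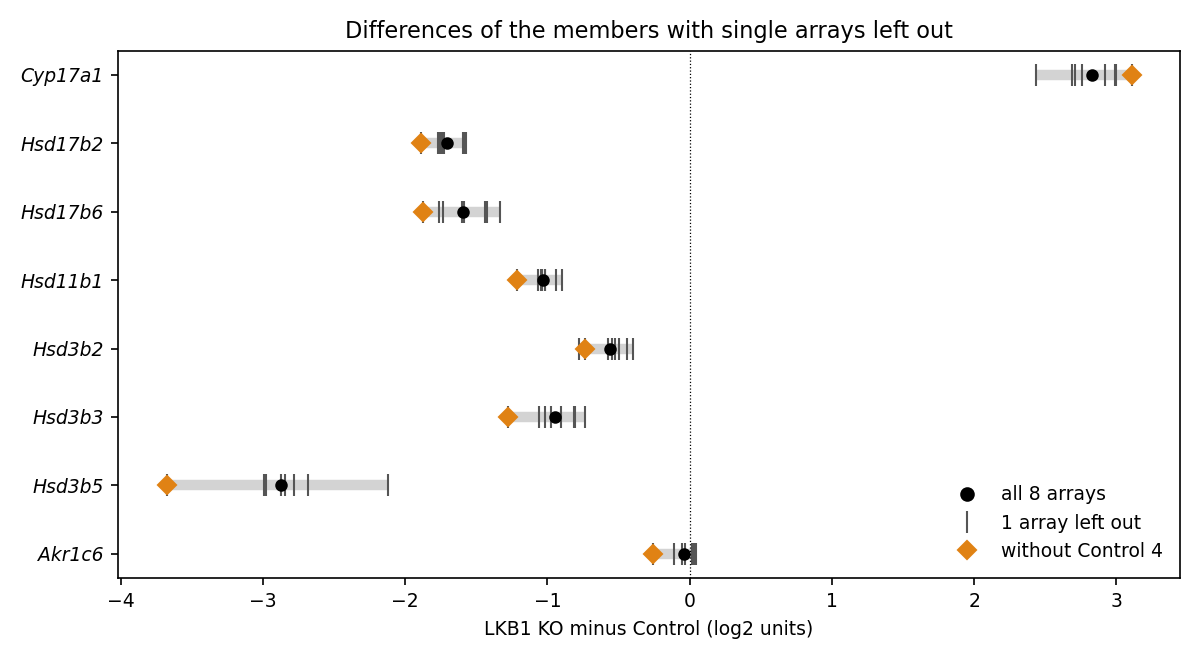
Differences between LKB1 KO and Control in log2 units (x axis) for each member, with all 8 arrays (dots), with each single array left out (ticks, range in grey) and without Control 4 (diamonds). Cyp17a1 stayed between 2.44 and 3.11 and Hsd17b2 between -1.89 and -1.57, while Hsd3b5 ran from -3.68 to -2.12.

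Genes whose values over the arrays lay nearest to those of Hsd3b5 were Ugt3a1, Cyp7a1, Sult2a8 and Slc22a7, at mean distances per array of 0.64, 0.68, 0.69 and 0.77 log2 units. Sult2a8, a sulfotransferase known from mouse liver for bile acid sulfation, had 6.0, 6.47, 6.04 and 6.71 in LKB1 KO 1 to 4, against 9.02, 8.80, 8.64 and 6.45 in Control 1 to 4. Control 4 lay within the range of the LKB1 KO arrays, a likeness to Hsd3b5 that follows from how the gene was chosen. The difference of -1.92 did not pass (limma adjusted p = 0.0755). Slc22a7, an organic anion transporter gene, had 5.01, 4.37, 4.84 and 5.56 in LKB1 KO 1 to 4, against 7.69, 7.75, 7.36 and 6.52 in Control 1 to 4, with Control 4 lowest but still above all LKB1 KO arrays.

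Summed levels of markers of several liver cell types were also lower in LKB1 KO livers. Beside the counts of markers that follow, 1.49% of all genes passed as lower and 0.487% as higher. The log2 of the summed level of 10 hepatocyte markers ranged from 14.87 to 14.95 in LKB1 KO livers and from 15.12 to 15.21 in Control livers, and 1 of the 10 (Cyp2e1) passed, as lower. For 10 endothelial markers the ranges were 9.81 to 9.99 in LKB1 KO livers and 10.24 to 10.56 in Control livers, with 3 passing as lower. In both lists the ranges of the groups did not overlap. For 10 macrophage markers they were 9.59 to 10.05 in LKB1 KO livers and 10.002 to 10.80 in Control livers, with 1 passing as lower. For 10 stellate cell markers they were 7.81 to 8.35 in LKB1 KO livers and 8.36 to 8.88 in Control livers, with 0 passing. Macrophage ranges thus overlapped, while those of stellate cells did not. For 7 measured cholangiocyte markers they were 7.32 to 7.53 in LKB1 KO livers and 6.52 to 7.20 in Control livers, with Prom1 passing as higher. For 9 measured lymphocyte and neutrophil markers they were 7.85 to 8.37 in LKB1 KO livers and 8.40 to 10.04 in Control livers, with 0 passing. The ranges of the cholangiocyte list and of this list did not overlap either. The lymphocyte and neutrophil sum rests mostly on the neutrophil genes S100a8 and S100a9. The other markers of that list averaged at most 3.82 in either group, near the background gauge. The means of 4 of the 9 were higher in LKB1 KO livers. Cholangiocyte markers were the list with the higher sum in LKB1 KO livers. Prom1 differed by 2.21 there, while the median difference of the 7 was 0.057, so the sum does not speak for the list as a whole. Of these markers Hhip (stellate), Epcam and Cftr (cholangiocyte), and Cd8a, Cd79a, Ms4a1 and Ly6g lay below the background gauge on all arrays. Their part in the differences of the steroid genes was not tested.

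Other genes of steroid metabolism and its control were taken from 8 lists that hold 139 genes, of which 127 were measured. In this set 4 rose and 10 fell, together 11%, beside 1.98% of all genes. The median difference was -0.075, beside 0.016 over all genes. On all arrays 22 of the 127 lay below the background gauge, beside 9132 of all 23185 genes, so the 2 shares are not fully alike. The lists were chosen with earlier results of these data known. The count ranged from 8 (without LKB1 KO 3) to 21 (without Control 4) with single arrays left out, and 3 of the 14 passed without moderation of variances.

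Of the 17 measured steroid-hydroxylating P450s of the liver, 5 fell and 0 rose, or 29.4%, beside 1.98% of all genes, with a median of -0.075. Cyp2d9, a testosterone hydroxylase of male mouse liver, had 8.64, 8.98, 8.57 and 9.12 in LKB1 KO 1 to 4, against 10.61, 10.31, 10.20 and 9.84 in Control 1 to 4. It fell by 1.42 log2 units (SE 0.19, limma adjusted p = 0.00452). Cyp7b1, which hydroxylates oxysterols and dehydroepiandrosterone, fell by 1.01 (limma adjusted p = 0.0347). That call ended without any array but Control 3 or Control 4, with adjusted p between 0.0259 and 0.104 over the single arrays left out. Cyp1a2, an estrogen hydroxylase (-1.38, limma adjusted p = 0.00324), Cyp2a12 (-0.80, 0.00615) and Cyp3a13 (-1.02, 0.0194) completed the 5, and Cyp3a13 lost its call without LKB1 KO 3 or Control 1 (0.0561 and 0.0604). Cyp3a11, a major steroid hydroxylase, did not pass (0.24, 95% confidence interval -0.057 to 0.53, limma adjusted p = 0.499). The P450s of this family are close relatives, and their probes may overlap.

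Of 19 other measured steroid dehydrogenases, 0 rose and 2 fell, H6pd and Hsd3b7 as given above, with a median of -0.0097. Of 10 other reductases 0 rose and 1 fell (Srd5a3), or 10%, with a median of 0.054. In both lists most members did not pass, among them the peroxisomal gene Hsd17b4 (-0.13, limma adjusted p = 0.758) and the lipid droplet gene Hsd17b13 (0.24, limma adjusted p = 0.401).

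None of the 11 measured genes of classical steroid synthesis and its electron carriers passed (median -0.21), and 3 of them lay below the background gauge on all arrays. The smallest p in that list were those of the cytochrome b5 reductase gene Cyb5r3 (-0.43, unadjusted p = 0.00488, limma adjusted p = 0.119) and of Cyp11b2 (-0.37, limma adjusted p = 0.422). Conjugation genes also gave 0 of 20 past the test (median -0.096), although values differed widely. Of these 20, 6 lay below the background gauge on all arrays. The cofactor gene for sulfation, Papss2, stood at 0.80 (unadjusted p = 0.00149, limma adjusted p = 0.0616) and the glucuronidation gene Ugt1a1 at -0.92 (limma adjusted p = 0.0693). Without Control 4 the adjusted p of Ugt1a1 was 0.0141, in a range up to 0.191, and Papss2 passed after quantile normalization (0.0426), among 4 settings. Of 12 receptors and plasma carriers 0 passed (median -0.16), with Nr3c1 as given above (unadjusted p = 0.00258) and the estrogen receptor gene Esr1 at 0.55 (limma adjusted p = 0.198). Among these 12, 2 lay below the gauge on all arrays.

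Among 16 glucocorticoid-induced genes 1 rose and 0 fell (6.25%, beside 1.98% of all genes, median -0.14). The riser was G6pc, the glucose-6-phosphatase gene (1.09, SE 0.18, limma adjusted p = 0.0125), which is also induced by glucagon. Per1 stood at 1.05 (limma adjusted p = 0.0643, and 0.0333 without Control 3, in a range up to 0.164 over the single arrays left out). The classical target Fkbp5 had 6.01, 5.93, 6.12 and 5.97 in LKB1 KO 1 to 4, against 7.05, 5.86, 7.09 and 7.81 in Control 1 to 4, a gene singled out after its values were seen. Its LKB1 KO arrays were nearly equal, and Control 2 lay below all of them. The Fkbp5 difference of -0.95 did not pass (limma adjusted p = 0.205).

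**Figure D5:**
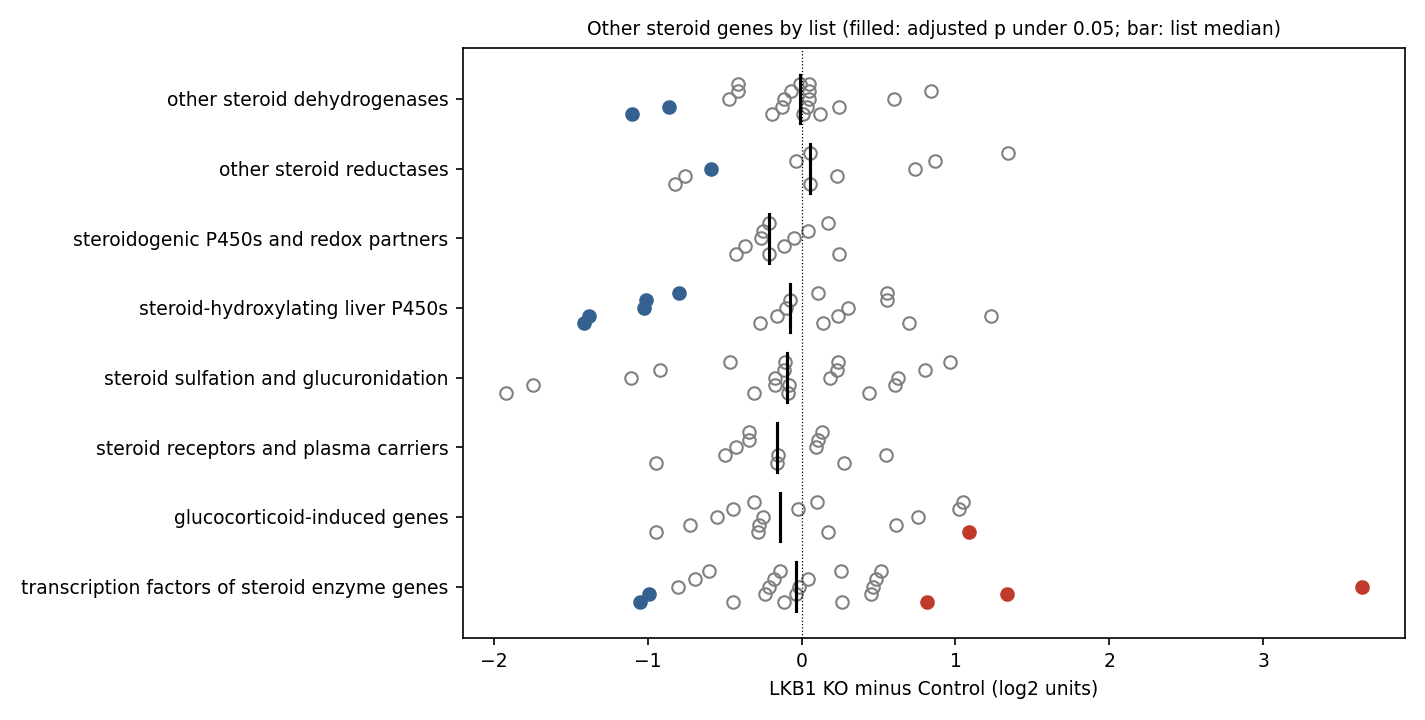
Each point is 1 gene of the 8 lists of other steroid genes, placed by its difference between LKB1 KO and Control in log2 units (x axis); filled points passed the limma test, red as higher and blue as lower, and black bars mark list medians. Of the 10 blue points 5 are steroid-hydroxylating P450s, and Nr4a1 is the point at 3.64.

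Transcription factors known to act on steroid enzyme genes moved in both directions. Of 23 measured, 3 rose and 2 fell, together 21.7%, beside 1.98% of all genes, with a median of -0.038. Nr4a1, which activates steroid enzyme genes including Cyp17a1 in gonadal cells, had 8.26, 8.01, 8.11 and 7.83 in LKB1 KO 1 to 4, against 4.53, 3.87, 4.71 and 4.53 in Control 1 to 4. It rose by 3.64 log2 units (SE 0.19, limma adjusted p = 1.41e-05). The coactivator gene Ppargc1a rose by 1.34 (limma adjusted p = 0.00401) and Cux2, a repressor of male-biased genes in female mouse liver, by 0.82 (limma adjusted p = 0.0188). Cux2 lay between 4.34 and 4.77 in LKB1 KO livers and between 3.53 and 3.96 in Control livers, near the background gauge, and lost its call without LKB1 KO 3 or Control 1 (0.0605 and 0.0597). The nuclear receptor gene Nr1i3 fell by 1.05 (limma adjusted p = 0.00324) and the hepatocyte factor gene Cebpa by 0.99 (limma adjusted p = 0.0108). Nr5a1, the main steroidogenic factor of adrenal and gonad, lay below the gauge on all arrays.

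Because Hsd3b5 is known as a male-biased gene, sex-biased genes were set beside it. The list of male-biased liver genes holds none of the chosen genes and shares Cyp2d9 and Cyp7b1 with the P450s. It was chosen with earlier results of these data known. Of its 19 measured genes 0 rose and 9 fell, or 47.4%, beside 1.98% of all genes, with a median of -0.89. Examples are C6 (-1.77, limma adjusted p = 0.000947), Cyp4a12a (-3.01, 0.00155), Selenbp2 (-2.71, 0.00287), Cyp2d9 as above, Cyp2u1 (-0.89, 0.00723) and the organic anion transporter gene Slco1a1 (-1.18, 0.0102). Of 18 measured female-biased genes, 1 rose (Cux2) and 0 fell, or 5.56%, beside 1.98% of all genes, with a median of 0.0027. Of these 18, 7 lay below the background gauge on all arrays, against 1 of the 19 male-biased genes. Genes at background could hardly fall, so the counts of the female-biased and male-biased lists are not fully comparable. Acot3 stood at 1.01 (limma adjusted p = 0.0512, and 0.0333 without Control 3, in a range up to 0.145). The Y-linked gene Eif2s3y lay between 6.93 and 7.35 in LKB1 KO livers and between 6.80 and 7.48 in Control livers, and Uty between 5.26 and 5.98 in LKB1 KO livers and between 5.62 and 6.24 in Control livers. Kdm5d, also Y-linked, lay between 4.32 and 5.24 in LKB1 KO livers and between 4.98 and 5.60 in Control livers. Xist lay below the background gauge on all 8 arrays, at no more than 2.74 in LKB1 KO livers and 3.01 in Control livers, and so did Tsix, at no more than 2.79 in LKB1 KO livers and 2.84 in Control livers. Eif2s3y, Uty and Kdm5d thus lay above the gauge on all 8 arrays, and with Xist below it this is the pattern of male liver in both groups. None of these 5 sex chromosome transcripts passed the test, and the smallest unadjusted p was 0.0682, for Uty.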

How the data were processed

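Total RNA of the mouse liver samples behind the 8 arrays was extracted with TRIzol, amplified to sense cDNA and biotin labelled, per the labels' protocols. The deposited table holds 1 log2 value per row and array, as normalized by the authors. RMA and Partek are listed, without versions, in the submitters' processing notes. No label names the array design or a genome build. The platform annotation gave a single gene symbol to 23185 of 25206 rows and no symbol to 2021. All 23185 were fitted without a filter with limma 3.58.1 in R 4.3.3 (lmFit, eBayes, group as the single term), and p-values were adjusted by Benjamini-Hochberg over all of them, at a threshold of 0.05. Differences are LKB1 KO minus Control. Since no label ties arrays to separate animals, the p-values reflect only array-to-array spread, possibly technical, and the number of arrays limits precision.

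Members and lists were chosen with earlier results of these data known. In the text stand Stk11, all members, up to 6 genes past the threshold from each list (or the 2 with the smallest p), sex chromosome transcripts and the 4 genes nearest to Cyp17a1 and to Hsd3b5; genes of both clusters and Cyb5a, Hsd11b2, Akr1d1, Cyp3a11, Hsd17b4, Hsd17b13, Fkbp5, Alb, Star, S100a8 and S100a9 were given after their values were seen. Des, Lyve1, Pdgfrb, Pecam1, Ly6g and Cyp21a1 were also given after their values were seen. Of the listed symbols, 22 were not analysed here. On simulated data for this comparison (23185 genes, 200 changed in each of 20 runs) the fit recovered 7.52% of changes of 0.5 log2 units, 81.3% of changes of 1 and 99.2% of changes of 2, and 4.97% of its calls were unchanged genes. The simulated noise was normal, independent between genes and arrays, and had the variances of the fit. These shares therefore do not cover effects of an array on many genes at once. Alternatives were a replicate block, single arrays left out, quantile normalization, median centring, removal of the dimmest of 3 equal bins of genes, a trended and robust prior, no moderation, array weights, all rows, a threshold of 0.01 and removal of both LKB1 KO 2 and Control 4; subtraction of the median over all genes was chosen after seeing the data.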

Additional observations from a re-analysis of the deposited data

Results flagged for a closer look

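Gaps of single arrays were checked in 84 groups of 4 arrays. These were the groups of the members, Stk11, the genes picked from the lists and the sex chromosome transcripts. The genes nearest to Cyp17a1 and to Hsd3b5 were not among them. In 3 groups 1 array lay far from the other 3, by a gap above Dixon's 95% critical value. Chance passes that value in about 1 in 20 groups. In all 3 groups this array was Control 4, as the lowest Control array. Akr1c6 had 8.55 in Control 4 and 9.36 to 9.44 in the other Control arrays (gap 0.910 of the range), Ugt1a1 had 6.51 and 7.30 to 7.39 in the others (0.896) and Slco1a1 had 9.86 and 10.51 to 10.63 in the others (0.852). For Akr1c6 this array decides whether the mean difference is -0.042 or -0.25.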

How the results depend on the processing

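Cyp17a1 stayed higher and Hsd17b2, Hsd17b6, Hsd11b1, Hsd3b2, Hsd3b3 and Hsd3b5 lower in every fit run, and no member's difference moved by more than the SD within groups. With single arrays left out the differences ranged from 2.44 to 3.11 for Cyp17a1, -1.89 to -1.57 for Hsd17b2, -1.88 to -1.33 for Hsd17b6, -1.21 to -0.90 for Hsd11b1, -0.78 to -0.40 for Hsd3b2, -1.28 to -0.73 for Hsd3b3, -3.68 to -2.12 for Hsd3b5 and -0.25 to 0.044 for Akr1c6. Cyp17a1 and Hsd17b2 passed in every fit except that without moderation of variances, in which 0 members passed. Because the members were chosen from this contrast, their calls describe the fits and nothing is read from them. All genes past the threshold, 458 as reported, numbered 213 to 491 with single arrays left out, 97 without moderation, 721 with array weights and 139 at a threshold of 0.01. Other steroid genes past it, 14 as reported, numbered 8 to 21 with single arrays left out, 3 without moderation, 23 with array weights and 6 at 0.01. Quantile normalization gave 36.8% of all calls as higher, and array weights 35.2%, against 113 of 458 as deposited. Titles share replicate numbers but no source pairs them. Deviations of same-numbered arrays correlated across genes at -0.036, -0.11, 0.18 and -0.022, and 2 of 8 arrays matched best with their own number. With the replicate block 268 genes passed, 12 of them other steroid genes, and Hsd17b6 and Hsd11b1 did not, nor did H6pd (adjusted p = 0.068), Cyp7b1 (0.0642) and Srd5a3 (0.109), while Per1 did (0.0411). Causes were not tested. Values below the background gauge, as those of Hsd3b5 in LKB1 KO livers, have uncertain sizes.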
